A study of Mus musculus with 19 samples.

Results

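The comparison of livers labelled WSD with livers labelled CTRL, both without beta-glucan, is described here across genes, gene groups and transcripts. It holds the libraries whose treatment label is exactly WSD or CTRL, 5 of each, which makes 10 of the 19 liver libraries of the series. The remaining 9 libraries, from 5 CTRL+beta-Glucan and 4 WSD+beta-Glucan samples, entered the estimate of spread and a test of whether the WSD effect differed with beta-glucan. All mice were male, of the C57BL/6J strain and labelled with 24 weeks, and no genetic modification is named in the labels. The labels do not spell out WSD, so it is used as a group name, and the series title places the study in fatty liver disease. The labels do not state whether the libraries of a group stem from different animals, so the spread behind every p-value here may be partly technical.

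The liver's mass is mostly hepatocytes, which secrete the plasma proteins, hold glucose steady, break down amino acids, and make bile acids and cholesterol. Kupffer cells, stellate cells, endothelial cells and bile duct cells make up the rest. When fat is stored in hepatocytes for a long time, monocytes enter and become macrophages that take up lipid, and stellate cells turn into cells that lay down collagen. In bulk RNA, fewer cells of a type and less RNA per cell cannot be told apart.

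Levels are given as CPM, depth-scaled counts with trimmed-mean factors, and not per gene length. The 10 libraries held 17360396 to 23450232 estimated reads. Between 12171 and 12400 genes had at least 10 counts in a CTRL library and between 13204 and 13622 in a WSD library, and the 50 most abundant genes took 40.2% to 43.3% of the reads in CTRL and 33.5% to 35.0% in WSD. All 15 hepatocyte markers were tested, with a summed level of 160754 to 194688 CPM in CTRL and 94812 to 110184 CPM in WSD. Albumin alone had a mean of 83731 CPM in CTRL and 38552 CPM in WSD. In the test described below 9 of the 15 were lower and 0 higher, beside 27.1% of all genes lower. With the scaling to total reads described there, 5 were lower and 4 higher. Reads assigned to annotated retained-intron transcripts made up 1.23% to 1.92% of a CTRL library and 2.06% to 2.66% of a WSD library, and the part of this in the results below was not tested. CTRL replicate 4 stood apart in markers of smooth muscle: its 9 listed genes summed to 149 CPM, against 9.80 to 23.0 CPM in the other CTRL libraries and 23.4 to 37.5 CPM in WSD. Acta2, the smooth muscle actin, was at 1.80, 2.38, 0.408, 40.0 and 4.79 CPM in CTRL replicates 1 to 5 and at 3.73, 4.42, 5.19, 1.97 and 5.29 CPM in WSD, so that library alone lies above the WSD range. Without CTRL replicate 4 the test described next called 3339 genes higher and 3444 lower, against 3528 and 3680 with it.

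Of 13594 genes tested, 53.0% differed, 26.0% higher and 27.1% lower in WSD, at an adjusted p under 0.05 (edgeR quasi-likelihood test, Benjamini-Hochberg), and 38.4% had no overlap between the 5 WSD and the 5 CTRL libraries. At least 2-fold changes were called for 15.8% of genes as higher and 3.0% as lower, and the median log2 fold change of all genes tested was -0.04. The split between higher and lower depends on how libraries are scaled. With trimmed-mean scaling 48.9% of called genes were higher, and with scaling to total reads alone 92.7% were higher and the median moved to 0.43. Changes below are therefore relative to the median gene, and lists counted below with at least as many members lower as higher are given under both scalings. Of the genes named below as lower, Cldn12, Esr1, Fbp1, Fst, Gjb1, Insr, Itga7, Lamp2, Nox4, Npc1, Pdk4, Ppara, Ptch1, Slc16a1 and Smo did not pass with scaling to total reads, Col18a1, Mcoln1 and Yap1 turned to values above 0 that did not pass, and Lgals9 passed as higher. Of those named as not passing, Acat2, Casp8, Cd47, Cebpa, Cebpb, Foxa2, Ghr, Igf1r, Irf9, Itgb1, Nr3c1, Pfkl, Ripk1, Sc5d, Stat2, Tfe3, Tfeb and Tgfbr1 passed as higher with that scaling. The gene lists hold 1125 entries, of which 1031 passed the filter on low counts. Every list count of genes that rose or fell stands beside the 26.0% and 27.1% of all genes tested. Counts without overlap stand beside the 38.4%. A member that is low in CTRL can pass it only through WSD, so counts over tested members lean toward higher. A change is a log2 fold change, WSD over CTRL, with its SE, and values per library follow the order of replicates 1 to 5.

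Several of the gene lists described below are known for a shared control element near the start of transcription. The promoters of their members (250 bases before to 50 after the start, RefSeq, GRCm38.p6, while the counts are on GRCm39) were searched for it on both strands. Hmgcs1, which encodes the cytosolic HMG-CoA synthase at the head of the sterol pathway, was the 1 of 17 sterol genes with a promoter in the table that held TCACNCCAC, the core of the sterol regulatory element, beside 1.44% of all genes with a promoter. CCAAT, the NF-Y box, was found in 16 of the 17 (94.1%) and in 7 of 7 MHC class II genes with a promoter, beside 41.1% of all genes. Of the 16 sterol genes with CCAAT 14 were lower in WSD, beside 21 of 25 in the whole sterol list. The 250 bases before the start of Hmgcs1 (chr13:119690101-119690350, plus strand) are shown because both motifs lie in them, in capitals, with CCAAT on the opposite strand as ATTGG.
Hmgcs1: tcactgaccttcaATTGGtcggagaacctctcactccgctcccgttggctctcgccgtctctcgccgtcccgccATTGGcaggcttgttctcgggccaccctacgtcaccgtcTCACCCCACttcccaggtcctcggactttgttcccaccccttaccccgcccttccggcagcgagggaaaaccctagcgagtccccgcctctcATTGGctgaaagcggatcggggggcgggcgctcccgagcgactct
The core of the interferon-stimulated response element, TTTC and TTTC with 2 bases of any kind between, was found in 16 of 24 interferon-induced genes with a promoter (66.7%), beside 3.99% of all genes. In the whole list 27 of 30 genes rose in WSD, and of the 16 with a match 15 rose. The stretches before the start of 6 of those with the smallest p-values are shown, in the direction of transcription, with each match in capitals (GAAA and GAAA where it lies on the opposite strand, and overlapping matches run together). They lie at chr5:120907526-120907554 (-), chr5:120777710-120777749 (-), chr5:92349078-92349117 (-), chr19:34583392-34583431 (+), chr3:142620589-142620628 (+) and chr4:156200860-156200899 (-).
Oas1a: ccttctcggGAAATGGAAACTGAAAatct
Oas3: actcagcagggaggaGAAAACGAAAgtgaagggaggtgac
Cxcl10: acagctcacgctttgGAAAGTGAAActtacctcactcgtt
Ifit3: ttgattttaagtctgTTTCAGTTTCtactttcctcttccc
Gbp2: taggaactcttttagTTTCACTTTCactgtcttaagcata
Isg15: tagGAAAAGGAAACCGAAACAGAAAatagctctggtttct
TCACGTGA, a palindrome bound by the lysosomal regulator TFEB, was found in 5 of 24 lysosomal genes with a promoter (20.8%), beside 1.12% of all genes. Of these 5 genes 3 rose and 1 fell, so they did not move one way. Ctsd, the aspartyl protease cathepsin D (chr7:142387904-142387941, minus strand), rose, and Mcoln1, a lysosomal calcium channel (chr8:3500458-3500495, plus strand), fell.
Ctsd: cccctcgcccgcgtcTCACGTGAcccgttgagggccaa
Mcoln1: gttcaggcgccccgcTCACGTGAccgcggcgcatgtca
GAGGAAGT, the box of the myeloid factor PU.1, was in 3 of 16 Fc receptor and ITAM genes (18.8%) and in 0 of 14 myeloid transcription factors, 0 of 6 NADPH oxidase genes and 0 of 10 macrophage markers, beside 3.69% of all genes. The box of PPAR alpha, AGGTCA and AGGTCA with 1 base of any kind between, was in 0 of 25 fatty acid oxidation genes, beside 0.0481% of all genes. A match is a description of these letters in this window, not of a bound site.

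The largest shifts in mean CPM were losses of secreted hepatocyte proteins. The 10 protein-coding genes with the largest loss of mean CPM, among those that passed the test with no overlap, were albumin, 5 major urinary protein genes, 3 serpins and Cyp4a14. Their summed CPM came to 18.0%, 17.1%, 18.6%, 20.1% and 24.8% of the scaled depth (reads times trimmed-mean factor) in the CTRL libraries. In WSD it came to 4.51%, 5.36%, 7.28%, 6.12% and 4.99%. These are not shares of the reads as counted. The factors, 0.829 to 0.896 in CTRL and 1.14 to 1.26 in WSD, raise the CTRL percentages and lower those of WSD. Alb (ENSMUSG00000029368), which encodes albumin, was at 102050.0, 77368, 84629, 71882 and 82722 CPM in CTRL and at 31256, 40843, 41568, 41231 and 37860.0 CPM in WSD. The groups did not overlap, as the choice required, and the log2 fold change was -1.12 ± 0.14 (adjusted p = 2.08e-06). Serpina3k, a secreted protease inhibitor, went from 16191 ± 2684 CPM (SD, n = 5) to 4266 ± 1482 CPM, and Cyp4a14, a fatty acid omega-hydroxylase induced by PPAR alpha, from 6256 ± 2021 to 604 ± 248 CPM. All 22 Mup genes, the male pheromone carriers of mouse urine, came to 6.14% to 14.8% of the scaled depth in CTRL and 1.39% to 3.08% in WSD. The Mup and serpin genes are near-identical copies, and how reads are divided among them is uncertain.

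The 10 largest gains were smaller, from 2.45% to 3.20% of the scaled depth in CTRL to 4.79% to 5.33% in WSD. Scd1 (ENSMUSG00000037071), the stearoyl-CoA desaturase, led them with 8098, 13633, 13639, 14384 and 10543 CPM in WSD and 2763, 2251, 4660.3, 4346 and 2937 CPM in CTRL, a log2 fold change of 1.83 ± 0.22 (adjusted p = 1.16e-06). Like the losses, the gains were chosen among genes with no overlap between the groups. Apoe, an apolipoprotein of lipoprotein clearance, had a mean of 25446 CPM in WSD and 19786 CPM in CTRL, and Apoa4, an apolipoprotein of triglyceride export, 5069 and 1596 CPM. The call for Apoe (adjusted p = 0.0223) was lost without WSD replicate 1 (0.0520) or CTRL replicate 5 (0.0684). The other gains were Car3, a carbonic anhydrase (1.93 ± 0.28), Gstm1, a glutathione transferase (0.57 ± 0.15), Fmo5, a monooxygenase (0.77 ± 0.13), the lysosomal protease Ctsb (0.98 ± 0.10), the MHC class II invariant chain Cd74 (3.69 ± 0.30), the keratin Krt8 (1.63 ± 0.14) and the actin Actb (1.07 ± 0.11). In the plot of these 20 genes by library, no WSD value crosses a CTRL value, which the choice fixed.

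**Figure D1:**
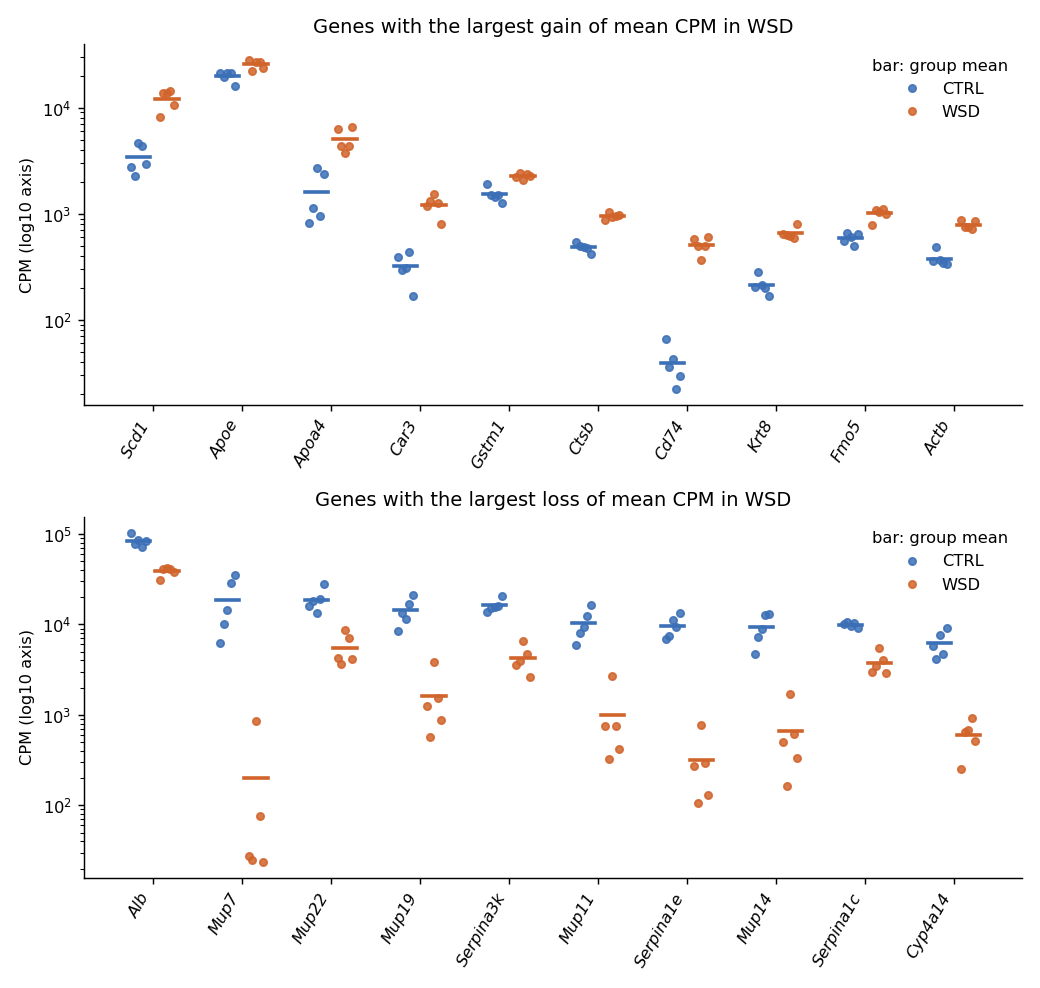
Level of the 10 genes with the largest gain and the 10 with the largest loss of mean CPM, on a log10 axis, with 1 point per library (5 CTRL, 5 WSD) and a bar at each group mean. The genes were chosen to have no overlap, so the gap between the groups is a property of the choice, and the plot shows its size: Mup7 (-6.54 ± 1.51) and Serpina1e (-4.94 ± 0.62) lie farthest apart, and Apoe (0.36 ± 0.13) and Gstm1 (0.57 ± 0.15) nearest.

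Relative changes were ranked among protein-coding genes with a mean of at least 5 CPM in the higher group and at least 10 reads in the lower group, with no overlap between the groups. Besides macrophage genes such as Gpnmb, Mmp12 and Trem2, the 15 highest held Ubd, a ubiquitin-like protein induced by cytokines, Ntrk2, the receptor of the neurotrophin BDNF, Ephb2, an ephrin receptor, Cyp2b9, a female-biased cytochrome P450, Ly6d and Adgrv1. Ntrk2 (ENSMUSG00000055254) was at 20.6, 23.8, 34.5, 23.4 and 25.1 CPM in WSD and at 0.394, 0.305, 1.05, 0.710 and 0.361 CPM in CTRL, a log2 fold change of 5.49 ± 0.24 (adjusted p = 3.79e-12) over 49 reads in CTRL. Ubd was at 46.0, 23.3, 10.9, 28.4 and 26.1 CPM in WSD and at 0.619, 0.487, 0.350, 0.473 and 0.361 CPM in CTRL (5.86 ± 0.46, adjusted p = 2.07e-08). Ubd varied more among the WSD libraries than Ntrk2 did, and the ranking required both to have no overlap with CTRL. Itgax, the integrin CD11c, changed by 5.35 ± 0.29, Lgals3, the lectin galectin-3, by 5.11 ± 0.39 and Adam8, a leukocyte metalloprotease, by 5.10 ± 0.37. Sdcbp2 and Shc2, adaptor proteins, changed by 5.26 ± 0.59 and 5.19 ± 0.71 from 21 and 19 reads in all CTRL samples, and Ms4a7, with 16 reads, by 4.90 ± 0.51.

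Outside the near-identical Mup and serpin families, the lowest changes in the same ranking were those of Hsd3b5, Cyp2c40, Sqle, Obp2a, Slco1a1 and Fam222a. Hsd3b5 (ENSMUSG00000038092), a male-specific hydroxysteroid dehydrogenase of liver, was at 10.6, 4.45, 6.65, 27.1 and 7.0 CPM in CTRL and at 0.184, 0.330, 1.30, 0.137 and 0.0407 CPM in WSD (-4.79 ± 0.95, adjusted p = 5.08e-04). Its CTRL values spread widely, and its highest WSD value lay below the lowest CTRL value, as the ranking required. Sqle (ENSMUSG00000022351), squalene epoxidase, a rate-limiting step of sterol synthesis, was at 11.3, 5.67, 11.6, 10.2 and 14.2 CPM in CTRL and 1.20, 0.289, 0.260, 0.641 and 1.5 CPM in WSD (-3.76 ± 0.49, adjusted p = 6.78e-06). Slco1a1, a male-biased organic anion importer, changed by -3.52 ± 0.57 from 117 ± 42.4 CPM, and Obp2a, an odorant-binding protein, by -3.60 ± 0.77 from 7.10 ± 1.73 CPM. Fam222a and Cyp2c40 changed by -3.42 ± 0.25 and -3.88 ± 0.29, and Cyp2c40 has close relatives.

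Transcription factors of hepatocyte identity and metabolism were lower as a group with trimmed-mean scaling but not with scaling to total reads, and those of injury and of myeloid cells were higher. Of 30 liver factors tested, 18 fell and 1 rose, with a median log2 fold change of -0.39. Most of these falls were small. With scaling to total reads 3 fell and 7 rose, and the median turned to 0.07. Hnf4a (ENSMUSG00000017950), the nuclear receptor that keeps hepatocytes differentiated, was at 637, 814, 811, 726 and 643 CPM in CTRL and at 403, 414, 452, 467 and 397 CPM in WSD (-0.77 ± 0.13, adjusted p = 9.09e-05). Ppara, which drives fat burning in fasting, changed by -1.02 ± 0.26, Ppargc1a, its coactivator PGC-1 alpha, by -1.21 ± 0.25, Nr1i3, the xenobiotic receptor CAR, by -0.87 ± 0.13, and Esr1, the estrogen receptor, by -0.90 ± 0.22. The 1 factor that rose was Pparg (ENSMUSG00000000440), the adipocyte regulator that is induced in fatty liver, at 18.6, 18.5, 14.3, 19 and 21.1 CPM in WSD and 9.62, 7.37, 8.80, 8.10 and 7.88 CPM in CTRL (1.13 ± 0.13, adjusted p = 7.33e-07). Cebpa, Foxa2 and Nr3c1, which encode C/EBP alpha, a forkhead factor and the glucocorticoid receptor, were at -0.07 ± 0.11, 0.05 ± 0.13 and -0.08 ± 0.11 and did not pass.

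Of 25 factors induced by injury or cytokines, 18 rose and 0 fell (median 1.15). Atf3 (ENSMUSG00000026628), a stress-induced repressor, was at 16.1, 13.2, 12.6, 16.6 and 18.1 CPM in WSD and at 0.450, 2.56, 1.05, 1.12 and 0.670 CPM in CTRL (3.72 ± 0.33, adjusted p = 3.42e-08). Klf6 rose by 2.52 ± 0.18, from 3.27 ± 0.361 to 18.8 ± 3.55 CPM. Relb and Nfkb2, the non-canonical NF-kappa B subunits, rose by 2.60 ± 0.24 and 1.47 ± 0.15, and Nfkb1 by 0.51 ± 0.09. Fosl1, an AP-1 subunit, had 0 reads in CTRL and stood at 1.01, 0.702, 0.260, 0.458 and 1.06 CPM in the WSD libraries, at least 20.4-fold higher against a floor of 3 counts over the CTRL group. Runx1 and Sox4 rose by 2.53 ± 0.45 and 2.32 ± 0.55. Cebpb and Stat3, mediators of the acute phase response, did not pass (0.22 ± 0.29 and -0.31 ± 0.13). Of 18 myeloid factors 13 rose and 0 fell (median 1.49). Spi1 (ENSMUSG00000002111), which encodes PU.1, was at 16.2, 18.6, 17.4, 16.6 and 19.6 CPM in WSD and 2.98, 2.44, 1.92, 1.06 and 1.13 CPM in CTRL (3.21 ± 0.30, adjusted p = 1.09e-07), and Irf8 and Batf3, factors of dendritic cells, rose by 2.36 ± 0.24 and 2.58 ± 0.29. Tfeb, Tfe3 and Mitf, the lysosomal regulators of this list, were at 0.14 ± 0.14, 0.03 ± 0.09 and -0.09 ± 0.19 and did not pass.

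**Figure D2:**
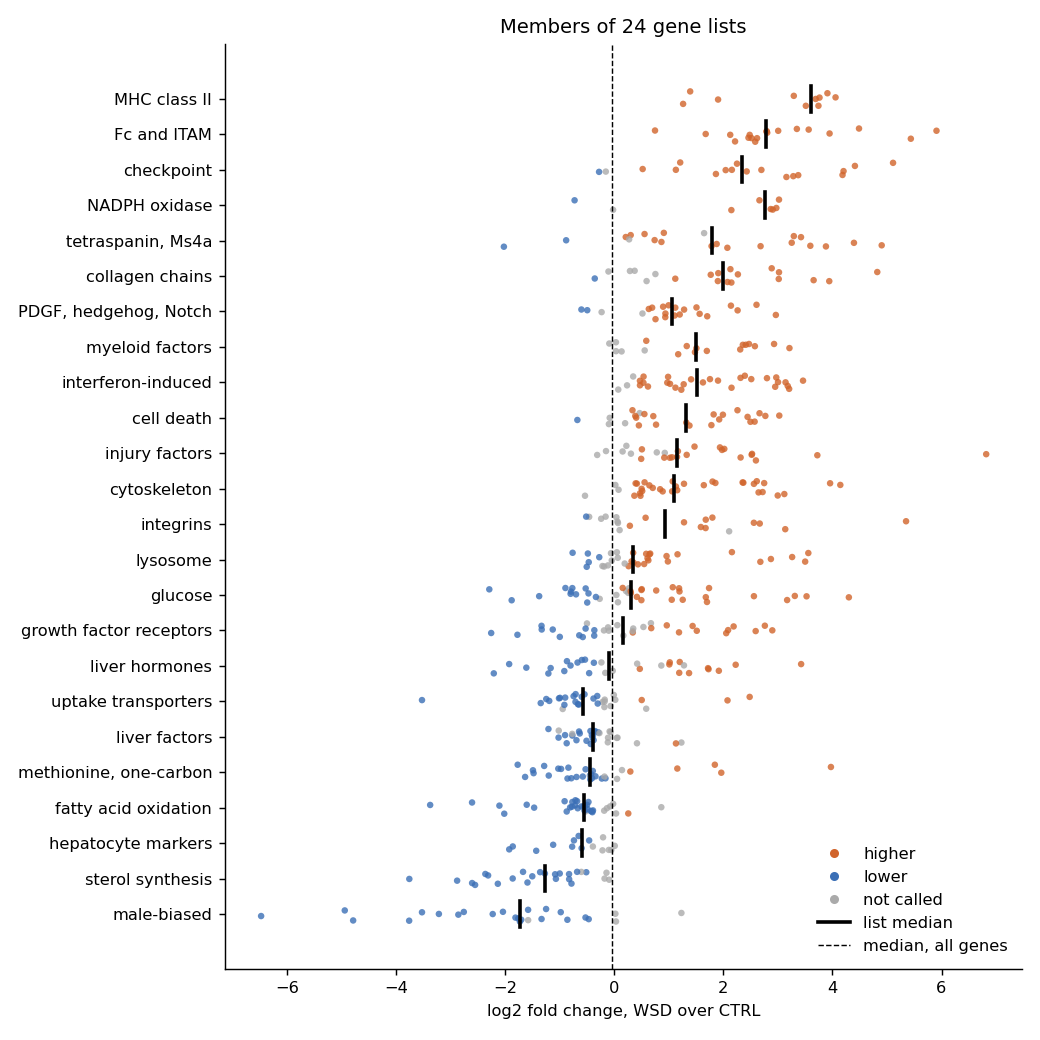
Log2 fold change (WSD over CTRL) of every tested member of 24 gene lists, 1 point per gene, coloured by whether the gene was higher, lower or not called at an adjusted p under 0.05, with a tick at the median of the list and a dashed line at the median of all genes tested. The injury factor farthest to the right is Fosl1, with no read in CTRL, whose position depends on the prior count of the fit. Immune, cytoskeletal and matrix lists lie to the right with few members to the left, and sterol and male-biased lists lie to the left, as does the methionine and one-carbon list with the trimmed-mean scaling plotted here.

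Among the enzymes of glucose use, those that release glucose were lower, and hexokinases of other cell types were higher. G6pc (ENSMUSG00000078650), the phosphatase that releases glucose, was at 218, 161, 184, 216 and 161 CPM in WSD and 731, 487, 719.6, 721 and 797 CPM in CTRL (-1.88 ± 0.20, adjusted p = 3.40e-07). Every WSD library lay below every CTRL library for this gene. Pck1, the entry enzyme of gluconeogenesis, changed by -2.29 ± 0.26 and Fbp1, which acts between Pck1 and G6pc, by -0.70 ± 0.12. Of these hexokinases Hk1 rose by 1.70 ± 0.18, Hk2 by 4.30 ± 0.35 from 0.436 ± 0.145 CPM, and Hk3, a leukocyte form, by 3.53 ± 0.40 from 1.30 ± 0.707 CPM.

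Further down glycolysis, both pyruvate kinases rose, Pklr, the liver form, by 1.20 ± 0.11 (to 145 ± 23.0 CPM) and Pkm, the form of most other cells, by 2.56 ± 0.19 (to 64.4 ± 6.74 CPM). The phosphofructokinase of platelets and other cells, Pfkp, rose by 1.68 ± 0.22, the muscle form Pfkm fell by 0.77 ± 0.10, and the liver form Pfkl did not pass (0.26 ± 0.11). Ldha, lactate dehydrogenase A, fell by 0.89 ± 0.12. G6pdx and Pgd, the NADPH-making steps of the pentose phosphate pathway, rose by 1.74 ± 0.16 and 1.19 ± 0.11. The lactate exporter Slc16a3 rose by 3.17 ± 0.42 and the monocarboxylate transporter Slc16a1 fell by 0.79 ± 0.14. In all 21 of 39 genes rose and 12 fell (median 0.30), and with scaling to total reads 26 rose and 6 fell.

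**Figure D3:**
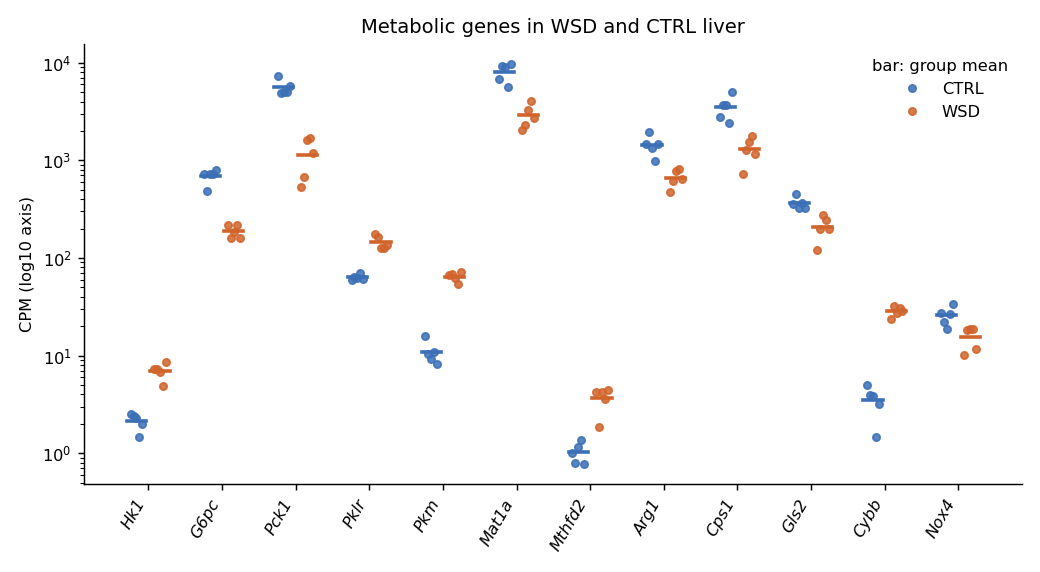
Level per library of 12 genes of glucose, amino acid and oxidant metabolism on a log10 CPM axis, with 5 CTRL points, 5 WSD points and a bar at each group mean per gene. Hk1, Pklr and Pkm lie higher and G6pc and Pck1 lower in WSD, Mthfd2 lies higher while Mat1a, Arg1, Cps1 and Gls2 lie lower, and Cybb lies higher while Nox4 lies lower, with the nearest libraries of the groups side by side.

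Of 31 genes of methionine, one-carbon and serine metabolism 22 fell and 5 rose (median -0.44), and with scaling to total reads 9 fell and 9 rose. Mat1a (ENSMUSG00000037798), which makes S-adenosylmethionine in hepatocytes, was at 6786, 9296, 9108, 5588 and 9712 CPM in CTRL and at 2029, 2323, 3318, 4038 and 2713 CPM in WSD (-1.49 ± 0.20, adjusted p = 5.90e-06). The later steps of the cycle were lower too: Gnmt, the main user of the methyl donor, changed by -1.28 ± 0.17, Ahcy by -1.20 ± 0.14, and Cbs and Cth, which turn homocysteine into cysteine, by -1.03 ± 0.11 and -1.63 ± 0.26. Nnmt, which methylates nicotinamide, fell by 1.77 ± 0.29. Bhmt, which remethylates homocysteine with betaine, did not pass (-0.44 ± 0.28). Mthfd2 (ENSMUSG00000005667), a mitochondrial folate enzyme of dividing cells, was at 4.19, 1.86, 4.24, 3.62 and 4.47 CPM in WSD and 1.01, 0.792, 1.17, 1.36 and 0.773 CPM in CTRL (1.84 ± 0.39, adjusted p = 6.39e-04). Mthfd1l, which works beside Mthfd2, rose by 1.16 ± 0.20, and Psat1, of serine synthesis, by 1.96 ± 0.34 (to 1.79 ± 0.308 CPM). Phgdh, the first enzyme of serine synthesis, was at 1.38, 0.165, 0.346, 0.595 and 0.691 CPM in WSD, with 3 reads over all CTRL libraries. Without WSD replicate 4 or 5 the number of the list that rose was 3 in place of 5.

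Of 10 tyrosine and phenylalanine genes 7 fell and 0 rose, led by Got1 (-1.89 ± 0.26) and Tat, the tyrosine aminotransferase (-1.86 ± 0.29), while with scaling to total reads 3 rose and 3 fell. Of 20 tryptophan and NAD genes 11 fell, among them Tdo2, which opens the tryptophan ring (-1.38 ± 0.17), and Kyat3 and Naprt (-1.01 ± 0.12 and -0.75 ± 0.09). The 1 that rose was Cd38, an NAD-consuming enzyme of immune cells (1.42 ± 0.19), while with scaling to total reads 6 rose and 5 fell in this list. Arginase changed by form: Arg1, the hepatocyte form, was at -1.13 ± 0.18 and Arg2, the form of other tissues, at 1.87 ± 0.57, and both passed. Gls2, the hepatocyte glutaminase, fell by 0.83 ± 0.17. The urea cycle enzyme Asl changed by -1.85 ± 0.18, and Cps1, its first step, by -1.43 ± 0.22. Of 20 genes of branched-chain amino acids 8 fell and 2 rose, none by 2-fold, and with scaling to total reads the direction turned (9 rose and 1 fell), with Ppm1k, the phosphatase that activates the pathway, at -0.99 ± 0.18 in the former.

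Sterol synthesis genes fell nearly as one, with 21 of 25 lower, 0 higher and 21 without overlap, beside 38.4% of all genes without overlap. Scaling to total reads left 19 lower and 2 higher. Their summed level was 1652, 1400.0, 1831, 1655 and 1739 CPM in CTRL and 959, 1105, 1116, 1116 and 933 CPM in WSD. Cyp51 and Hsd17b7, late steps of the pathway, changed by -2.60 ± 0.20 and -2.31 ± 0.17. Hmgcs1, whose promoter is printed above, fell by 0.78 ± 0.14. Among the genes that control the pathway, Insig1, which holds the regulators in the endoplasmic reticulum, changed by -1.50 ± 0.29 and Srebf2, the master regulator, by -0.83 ± 0.10. Mvd, Sc5d and Acat2 did not pass (-0.60 ± 0.32, -0.14 ± 0.09 and -0.09 ± 0.09).

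Fatty acid oxidation genes also fell, in 26 of 34 cases, with 1 higher, but by less (median -0.55), and with scaling to total reads 11 fell and 6 rose. The 6 that fell at least 2-fold were Cyp4a14, Cyp4a10 (-2.10 ± 0.33), Acot1 (-2.61 ± 0.47), Ehhadh, the peroxisomal bifunctional enzyme (-2.02 ± 0.40), Acsl1, which activates long-chain fatty acids (-1.60 ± 0.20), and Pdk4, which restrains glucose oxidation (-1.47 ± 0.55). The call for Pdk4 (adjusted p = 0.0350) was lost without WSD replicate 2, 3, 4 or 5 or CTRL replicate 3, 4 or 5, with adjusted p between 0.0607 and 0.0751. The 1 that rose was Hadh (0.26 ± 0.10), a mitochondrial dehydrogenase, and this call was lost without WSD replicate 1, 3 or 4 or CTRL replicate 2, 3 or 5 (adjusted p up to 0.0981). Acadvl, the very-long-chain dehydrogenase of mitochondria, fell by 0.71 ± 0.08.

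Of 33 phospholipid genes 8 rose and 14 fell, none of the latter by 2-fold, beside 26.0% higher and 27.1% lower of all genes. With scaling to total reads 16 rose and 1 fell. Lpcat2 and Lpcat1, lysophosphatidylcholine acyltransferases, rose by 2.78 ± 0.28 and 1.60 ± 0.25 and Pld4 and Pld3 by 2.73 ± 0.27 and 1.06 ± 0.09, while Lcat, the plasma enzyme that esterifies cholesterol, fell by 0.89 ± 0.10. Of 29 sphingolipid genes 13 rose and 4 fell. Sptlc2, a subunit of the first enzyme of ceramide synthesis, went from 14.4 ± 0.739 to 38.7 ± 5.07 CPM (1.43 ± 0.10), Cers6, a ceramide synthase, rose by 0.92 ± 0.16, and Cerk, the ceramide kinase, by 1.95 ± 0.15. Among 22 eicosanoid enzymes 10 rose and 5 fell, with Tbxas1, the thromboxane synthase, and Hpgds, a prostaglandin D synthase, higher by 3.19 ± 0.24 and 3.51 ± 0.35 and Ephx2, the soluble epoxide hydrolase, lower (-1.04 ± 0.12). Ptgs1, cyclooxygenase 1, rose by 1.49 ± 0.22, and Ptgs2 was too low to be tested.

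Genes with a sex bias in mouse liver moved away from the male pattern but not uniformly toward the female one. Of 25 male-biased genes 21 fell and 0 rose (median -1.73), 17 of them by at least 2-fold. Scaling to total reads left 18 lower and 1 higher. Cyp7b1, an oxysterol hydroxylase, changed by -2.86 ± 0.38, Susd4, a complement regulator, by -3.21 ± 0.40 and Cspg5 by -3.76 ± 0.41. Of 22 female-biased genes 7 rose and 9 fell, and with scaling to total reads 8 rose and 7 fell. Cyp2b9 (ENSMUSG00000040660) was at 7.19, 22.8, 8.83, 9.20 and 5.0 CPM in WSD and 0.394, 0.244, 0.292, 0.118 and 0 CPM in CTRL (5.65 ± 0.96, adjusted p = 1.21e-04), and Sult1e1, the estrogen sulfotransferase, rose by 3.89 ± 0.60. In the same list Prlr, the prolactin receptor, fell by 1.33 ± 0.23, and Cyp2c40, Cyp4a14 and A1bg changed by -3.88, -3.37 and -3.30. Bcl6 and Cux2, sex-biased repressors of the liver, did not pass (1.23 ± 0.75 and -1.02 ± 0.55).

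Uptake carriers of the hepatocyte surface were lower, with 18 of 30 falling and 3 rising, and with scaling to total reads 9 fell and 9 rose. Slc10a1, the bile acid importer, went from 472 ± 48.4 to 199 ± 40.9 CPM (-1.25 ± 0.13), and the amino acid carriers Slc38a4 and Slc7a2 changed by -0.90 ± 0.16 and -0.99 ± 0.20. Aqp8, a water and peroxide channel, rose by 2.48 ± 0.16, Slc28a1, a nucleoside carrier, by 2.08 ± 0.47 and Slc2a2, the glucose carrier GLUT2, by 0.50 ± 0.13. Of 22 vitamin A genes 6 rose and 6 fell, near the shares of all genes (26.0% higher and 27.1% lower). With scaling to total reads 13 rose and 4 fell. Retsat, the retinol saturase, and Rdh11 changed by -2.10 ± 0.23 and -1.11 ± 0.09, and Lrat, which esterifies retinol for storage in stellate cells, rose by 1.12 ± 0.31.

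Hormones made by the liver moved in both directions, 11 higher and 13 lower of 30, and with scaling to total reads 15 rose and 9 fell. Igf1 (ENSMUSG00000020053), the growth hormone effector, was at 314, 349.6, 401, 374 and 457 CPM in CTRL and 176, 216, 256, 241 and 198 CPM in WSD (-0.80 ± 0.13, adjusted p = 2.97e-05). Its carriers Igfals and Igfbp2 changed by -1.17 ± 0.21 and -1.21 ± 0.20. Enho, which encodes adropin, was at 9.67, 11.9, 16.6, 12.1 and 20.04 CPM in CTRL and 5.07, 2.23, 3.07, 2.29 and 2.60 CPM in WSD (-2.21 ± 0.42, adjusted p = 3.18e-04). Hamp, the iron hormone hepcidin, fell by 1.61 ± 0.36 and overlapped between the groups, with 294 to 1432 CPM in CTRL and 191 to 381 CPM in WSD. Gdf15, a stress hormone, Lect2, a hepatokine, and Tsku rose by 3.43 ± 0.27, 1.02 ± 0.17 and 1.73 ± 0.45.

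Several hepatocyte receptors for growth factors and insulin were lower, while the list of growth factor receptors moved both ways. Egfr (ENSMUSG00000020122) was at 197, 274, 316, 271 and 439 CPM in CTRL and 74.4, 86.0, 118, 80.3 and 79.6 CPM in WSD (-1.77 ± 0.22, adjusted p = 2.14e-06). Irs2, an insulin receptor substrate, was at 29.9, 26.6, 77.1, 55.5 and 69.3 CPM in CTRL and 11.5, 9.91, 9.17, 12.5 and 11.1 CPM in WSD (-2.25 ± 0.32, adjusted p = 1.81e-05). Both genes were lower in every WSD library than in any CTRL library. Insr, the insulin receptor, changed by -0.64 ± 0.15, Lifr, the LIF receptor, by -1.33 ± 0.16, Klb, the FGF21 co-receptor, by -1.13 ± 0.22, and Erbb3 by -1.0 ± 0.14, while Ghr, the growth hormone receptor, and Igf1r did not pass (-0.19 ± 0.12 and 0.67 ± 0.29). The receptors that rose included Csf2ra and Csf1r of myeloid cells (2.90 ± 0.22 and 2.19 ± 0.33), Osmr, the oncostatin M receptor (2.05 ± 0.30), the collagen receptors Ddr1 and Ddr2 (2.59 ± 0.52 and 1.44 ± 0.28) and Axl, a receptor for apoptotic cells (2.76 ± 0.26). In all 12 of 33 receptors rose and 11 fell, beside 26.0% higher and 27.1% lower of all genes. With scaling to total reads 18 rose and 6 fell. Of 28 ligands 17 were tested, of which 10 rose and 3 fell. Those that rose included Csf1, which sustains macrophages (1.4 ± 0.12), and Mdk, midkine (3.0 ± 0.54). Lif rose too, with 3 reads over the CTRL libraries and 77 over WSD. The summed level of the 28 ligands was lower in WSD, at 494 to 566 CPM against 578 to 733 CPM in CTRL.

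The phagocyte machinery rose from receptor to oxidase. Of 20 Fc, C-type lectin and ITAM genes 19 were tested, and all of these rose (median 2.79). Of the 19, 18 were without overlap, beside 38.4% of all genes. The summed level of the list was 83.5, 70.3, 52.8, 26.4 and 46.3 CPM in CTRL and 279, 321, 301, 299 and 328 CPM in WSD. Tyrobp and Fcer1g, the signalling adaptors of these receptors, rose by 3.35 ± 0.37 and 2.81 ± 0.29, Syk, the kinase they recruit, by 2.48 ± 0.20, and Fcgr1, the high-affinity IgG receptor, by 3.56 ± 0.26. Fcgr2b, the inhibitory Fc receptor that sinusoidal endothelium also carries, rose least, by 0.75 ± 0.24. Clec4e, a receptor for glycolipids and dying cells, had 1 read over all CTRL libraries and 0.461, 0.578, 0.736, 1.51 and 0.529 CPM in WSD. Subunits of the phagocyte NADPH oxidase rose as well: Cybb, the catalytic subunit, by 3.02 ± 0.27, Cyba by 2.87 ± 0.23, Ncf1 by 2.15 ± 0.26 and Ncf4 by 2.91 ± 0.26. Cybb (ENSMUSG00000015340) was at 23.7, 31.8, 27.1, 30.6 and 28.5 CPM in WSD and 4.95, 3.96, 3.85, 1.48 and 3.19 CPM in CTRL (adjusted p = 4.95e-08). Nox4 (ENSMUSG00000030562), the oxidase of hepatocytes, was at 10.2, 18.4, 18.9, 18.7 and 11.7 CPM in WSD and 27.6, 21.8, 18.9, 26.5 and 34.0 CPM in CTRL, a change of -0.73 ± 0.22 with the nearest libraries at about the same level (adjusted p = 0.00940).

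Of 20 integrin chains 11 rose and 1 fell, led by the leukocyte chains Itgax, Itgb2 (3.14 ± 0.25), Itgal (2.56 ± 0.25) and Itgam (2.67 ± 0.31), while Itgb1, the common chain of most cells, did not pass (-0.16 ± 0.07) and Itga7, a laminin receptor of muscle, fell by 0.51 ± 0.13. Of 21 tetraspanin and Ms4a genes 17 rose and 2 fell. Ms4a6c and Ms4a6d, which have close relatives, rose by 3.29 ± 0.21 and 3.25 ± 0.28, Cd63, a tetraspanin of late endosomes, by 3.88 ± 0.38 from 3.77 ± 1.18 to 55.4 ± 22.3 CPM, and Tspan33 and Tspan31 changed by -2.02 ± 0.17 and -0.88 ± 0.12. Of 18 co-stimulation and checkpoint genes 16 rose and 1 fell (median 2.34). Cd274, the checkpoint ligand PD-L1, rose by 2.70 ± 0.22, Sirpa, the phagocyte receptor for the signal CD47, by 3.37 ± 0.22, Havcr2, TIM-3, by 3.28 ± 0.44 and Cd86, a co-stimulator, by 2.43 ± 0.29. The 1 that fell was Lgals9, galectin-9 (-0.28 ± 0.07). Cd47, the signal itself, did not pass (-0.15 ± 0.07), and Pdcd1 and Ctla4, the T cell receptors PD-1 and CTLA-4, were too low to be tested.

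Interferon-induced and antigen-presenting genes were higher in WSD, and their sums did not overlap. Of 30 interferon-induced genes 27 rose and 0 fell (median 1.52), and their sum was 602, 663, 713, 628 and 588 CPM in CTRL and 1229, 1211, 1320.0, 1182 and 1076 CPM in WSD. Oas1a (ENSMUSG00000052776), an RNA-sensing synthetase, was at 12.4, 11.7, 12.8, 11.3 and 12.5 CPM in WSD and 1.57, 1.34, 1.75, 0.769 and 1.24 CPM in CTRL (3.18 ± 0.15, adjusted p = 1.11e-11). Cxcl10, which attracts T cells, rose by 3.21 ± 0.23, Gbp2 by 3.14 ± 0.26, Oasl2 by 2.80 ± 0.17 and Psmb9, an immunoproteasome subunit, by 1.90 ± 0.13. Stat2 and Irf9, factors that activate these genes, did not pass (0.24 ± 0.13 and 0.07 ± 0.11). The 10 genes of MHC class II presentation, all higher, summed to 146, 80.2, 94.5, 50.8 and 65.5 CPM in CTRL and 1335, 1177, 848, 1223 and 1382 CPM in WSD, with WSD replicate 3 the lowest of the WSD libraries.

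Of 33 lysosomal genes 20 rose and 5 fell (median 0.35). Those that rose most were macrophage enzymes: Ctss, cathepsin S, by 3.50 ± 0.31, Ctsk by 2.87 ± 0.49, Atp6v0d2, a proton pump subunit, by 3.26 ± 0.31 and Cd68 by 3.56 ± 0.32. Hexa, which degrades gangliosides, rose by 1.16 ± 0.10, and Ctsd by 0.66 ± 0.07. Npc1 and Npc2, partners in cholesterol export from the lysosome, went apart, at -0.76 ± 0.13 and 0.65 ± 0.09, and both passed. Lamp2 and Mcoln1 changed by -0.50 ± 0.14 and -0.27 ± 0.08, and with scaling to total reads 26 of the list rose and 0 fell.

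Genes of cell death rose in 20 of 25 cases and fell in 1 (median 1.32). The necroptosis executors Ripk3 and Mlkl rose by 2.26 ± 0.34 and 1.82 ± 0.17. Mlkl (ENSMUSG00000012519) was at 7.93, 8.59, 5.19, 6.91 and 6.87 CPM in WSD and 1.86, 2.07, 2.57, 1.83 and 1.70 CPM in CTRL (1.82 ± 0.17, adjusted p = 3.63e-08). The inflammasome genes Nlrp3, Pycard and Casp1 rose by 2.57 ± 0.26, 2.66 ± 0.25 and 2.50 ± 0.60. Tnfrsf10b, the TRAIL receptor, rose by 1.99 ± 0.29, and Pmaip1, the p53 target NOXA, by 2.44 ± 0.37. Casp8 and Ripk1 did not pass (-0.08 ± 0.11 and -0.10 ± 0.08).

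In the cytoskeleton list, 31 of 34 actin, tubulin and associated genes were higher, 0 lower and 30 without overlap, beside 38.4% of all genes without overlap. Their sum was 2092, 2425, 1974, 1975 and 1828 CPM in CTRL and 4294, 3740.0, 3644, 3632 and 4384 CPM in WSD. Tmsb4x, thymosin beta 4, went from 41.8 ± 12.1 to 256 ± 30.6 CPM (2.61 ± 0.20), Cotl1 and Coro1a, actin binders of leukocytes, rose by 2.72 ± 0.20 and 2.75 ± 0.23, Vim, vimentin, by 2.65 ± 0.26 and Tubb2b, a neuronal tubulin, by 4.14 ± 0.76. Of 26 keratin and junction genes 4 rose and 5 fell, beside 26.0% higher and 27.1% lower of all genes. With scaling to total reads 15 rose and 0 fell. Krt8 and its partner Krt18 rose by 1.63 ± 0.14 and 0.94 ± 0.12, and Cldn4, a claudin of bile ducts, by 2.85 ± 0.91. Cldn12, a tight junction claudin, and Gjb1, the hepatocyte gap junction connexin 32, changed by -0.79 ± 0.14 and -0.54 ± 0.10, and Krt19, a bile duct keratin, did not pass (0.01 ± 0.95). Of 20 chaperones 1 rose, Hspb1 (1.19 ± 0.20), and 8 fell, none by 2-fold, and with scaling to total reads 0 fell.

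Signals that activate stellate cells rose with the matrix. Tgfb1 (ENSMUSG00000002603), the main fibrogenic cytokine, was at 18.0, 14.4, 14.9, 15 and 17.2 CPM in WSD and 6.24, 5.0, 4.49, 3.25 and 3.50 CPM in CTRL (1.82 ± 0.18, adjusted p = 1.40e-07). Tgfb2 and Tgfb3 rose by 2.27 ± 0.43 and 1.78 ± 0.37, the latent TGF beta binding proteins Ltbp2 and Ltbp3 by 2.37 ± 0.36 and 1.90 ± 0.31, and Thbs1, which activates the latent form, by 2.46 ± 0.32. Of the receptors, Tgfbr2 and Acvrl1 rose by 0.86 ± 0.16 and 2.31 ± 0.22 and Tgfbr1 did not pass (0.07 ± 0.13). Inhbc, an activin chain made by hepatocytes, and Fst, the activin antagonist follistatin, changed by -1.0 ± 0.13 and -0.78 ± 0.24. In all 15 of 31 genes of TGF beta and BMP signalling rose and 4 fell. Of 22 PDGF, hedgehog and Notch genes 18 rose and 2 fell. Pdgfb, a mitogen of stellate cells, was at 7.37, 4.38, 4.76, 4.85 and 8.66 CPM in WSD and 1.24, 0.853, 1.28, 0.591 and 0.927 CPM in CTRL (2.61 ± 0.29, adjusted p = 3.97e-07). Its receptor Pdgfrb rose by 2.14 ± 0.30, the Notch target Hey1 by 2.96 ± 0.39, the Notch modifier Lfng by 1.71 ± 0.19, and Ihh, Indian hedgehog, by 2.26 ± 0.55, while Ptch1, the hedgehog receptor, fell by 0.60 ± 0.19. The other one that fell was Smo (-0.49 ± 0.20, adjusted p = 0.0468), and this call was lost without any of WSD replicates 1 to 4 or CTRL replicates 3 to 5 (adjusted p up to 0.145 without CTRL replicate 5).

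Of 20 collagen chains 14 rose, all of these without overlap (beside 38.4% of all genes), and 1 fell (median 1.99). Col3a1 (ENSMUSG00000026043), the fibrillar collagen III, was at 132, 143, 109, 73.1 and 175 CPM in WSD and 9.79, 7.25, 7.05, 12.5 and 4.53 CPM in CTRL (3.94 ± 0.39, adjusted p = 3.58e-07), and WSD replicate 4 was the lowest of the WSD libraries. Col5a2 and Col4a1 rose by 3.02 ± 0.27 and 2.13 ± 0.18, and Col18a1, which hepatocytes make, fell by 0.36 ± 0.12. Of 19 YAP and TAZ genes 11 rose and 1 fell, with Tead2 at 1.69 ± 0.35 and Ajuba at 1.33 ± 0.27, while the usual reporter Ccn2 did not pass (0.38 ± 0.53). Yap1 itself was the 1 that fell (-0.33 ± 0.07).

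Genes of fetal liver and liver tumours rose in 11 of 18 cases and fell in 1. Ly6d (ENSMUSG00000034634), a surface protein seen in damaged hepatocytes, was at 255, 165, 135, 177 and 266 CPM in WSD and 3.26, 4.08, 8.22, 14.1 and 3.66 CPM in CTRL (4.91 ± 0.44, adjusted p = 1.20e-07). Ly6d is also in the ranking above, which admitted only genes with no overlap between the groups. Spink1, a trypsin inhibitor, had 3 reads over all CTRL libraries and 0.784, 1.07, 0.476, 0.412 and 0.732 CPM in WSD. Cd44, a hyaluronan receptor, rose by 2.67 ± 0.26, Scd2 by 2.85 ± 0.29 and Afp, alpha-fetoprotein, by 1.85 ± 0.33 (to 1.22 ± 0.128 CPM), and Peg3, an imprinted gene, fell by 2.56 ± 0.20. Gpc3, a glypican of liver tumours, did not pass (0.30 ± 0.58).

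Markers of macrophages, T and NK cells, endothelium and stellate cells mostly rose, beside 26.0% of all genes called higher. Other cell types showed fewer calls or none. The part of all these markers in each result was not tested. Of 13 macrophage markers 11 rose, with a sum of 71.1 to 200.2 CPM in CTRL and 698 to 905 CPM in WSD. Of 13 T and NK cell markers 11 rose, with a sum of 2.54 to 6.02 and 9.87 to 23.6 CPM and Cd8a at 3.63 ± 0.51. Of 11 endothelial markers 8 rose (96.4 to 277 and 238 to 373 CPM), of 10 stellate markers 7 (144 to 418 and 392 to 562 CPM), of 7 B and plasma cell markers 3 (9.12 to 18.0 and 21.1 to 33.7 CPM) and of 9 bile duct markers 3 (26.5 to 61.3 and 31.8 to 77.9 CPM). The bile duct genes that rose were Sctr, the secretin receptor (3.52 ± 0.98), Cftr (3.04 ± 0.98) and Epcam (1.85 ± 0.67), while the sums of the list overlapped. The call for Epcam was lost without WSD replicate 1 or 5 or CTRL replicate 2, 3 or 5 (adjusted p up to 0.0992), and that for Cftr without WSD replicate 5 (adjusted p = 0.0502). Of 9 neutrophil markers 4 were tested and 0 rose, and of 7 red blood cell markers 5 and 0. Of 9 smooth muscle markers 7 were tested and 1 rose. Their sum was 149 CPM in CTRL replicate 4, 9.80 to 23.0 CPM in the other CTRL libraries and 23.4 to 37.5 CPM in WSD. That CTRL library alone lay above the WSD sums, and its part in this count was not tested. Fabp4 and Cfd, of the adipose list, rose by 2.83 ± 0.25 and 4.44 ± 0.61, while Adipoq, Plin1, Lep and Retn, its defining genes, were too low to be tested. A single gene of the exocrine pancreas list could be tested, and the sum of its 9 genes was 5.44 CPM in CTRL replicate 4 and 0.122 to 0.369 CPM in WSD.

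**Figure D4:**
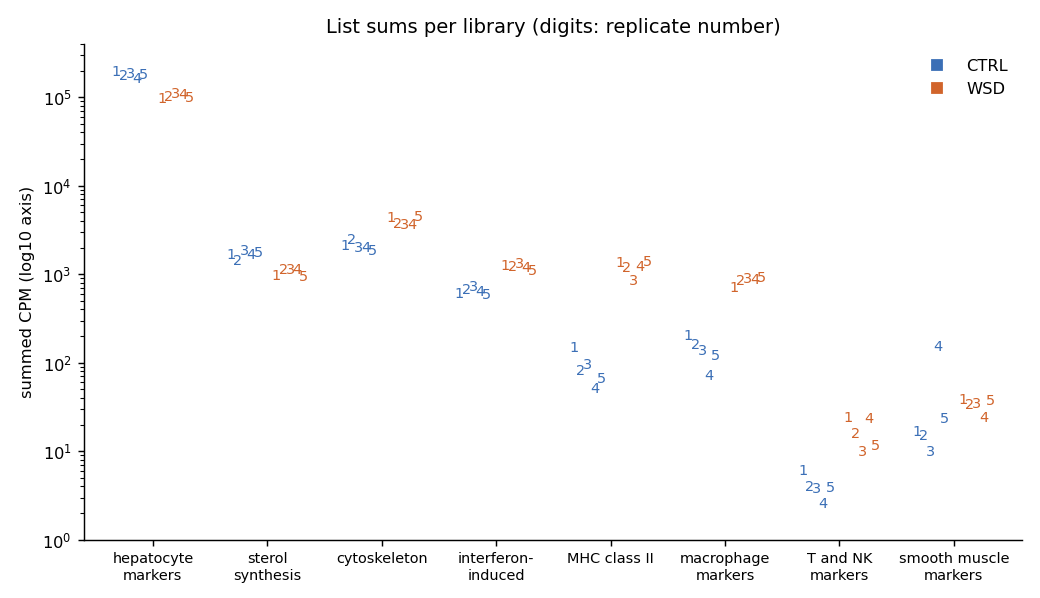
Summed level per library of 8 marker and pathway lists on a log10 CPM axis, with the 5 CTRL and 5 WSD libraries marked by replicate number. The hepatocyte and sterol sums lie lower in WSD without overlap. The cytoskeleton, interferon, MHC class II, macrophage and T and NK sums lie higher without overlap. The smooth muscle sums overlap, with CTRL replicate 4 far above the other CTRL libraries.

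Transcript shares within a gene were tested in the same 10 libraries. Of 18853 transcripts of 9414 genes, 149 (0.790%) differed in their share of the gene's estimated reads at an adjusted p under 0.05 (limma on log odds), and 939 (4.98%) had no overlap between the groups. Among the 8 largest changes was that of Pparg, whose transcript Pparg-201 made up 82.2, 59.0, 63.8, 71.5 and 56.9% of its reads in the WSD libraries and 0, 0, 19.4, 0 and 0% in CTRL (adjusted p = 0.0238). In 4 of 5 CTRL libraries no read was assigned to Pparg-201, over 733 CTRL reads of the gene. Ptpn6, the phosphatase SHP-1 of blood cells, chosen after its values were seen, went from 86.2% ± 6.76 for Ptpn6-203 in CTRL (SD, n = 5) to 45.0% ± 6.77 in WSD (adjusted p = 0.0143), while the gene as a whole was at 0.42 ± 0.08. Several of the other large changes were in genes with few CTRL reads. The genes of Emilin2-203, Gipc2-201, Pdlim2-210 and Mmp12-204 counted 80, 23, 79 and 59 reads summed over the CTRL samples. Srgap3-202, with 470 CTRL reads for its gene, went from 87.0% ± 29.0 to 0% ± 0, and Mup2-202 belongs to a near-identical family. Salmon's estimates for transcripts come without their own error here, so shares of similar transcripts are uncertain. Without 1 library at a time the number of transcripts called lay between 30 and 117, and with a pseudocount of 5 in place of 0.5 it was 614. The call for Pparg-201 was lost without any of the WSD libraries or CTRL replicate 4 or 5 (adjusted p up to 0.0702). Calls for Emilin2-203, Srgap3-202 and Mup2-202 were lost in the same way without at least 5 of the 10 libraries in turn.

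Whether the WSD effect was the same in mice given beta-glucan was tested by the difference between both effects, which share no libraries. A single gene of 13594 (0.00736%) passed, and 1865 (13.7%) had an unadjusted p under 0.05. That gene was Unc93b1 (ENSMUSG00000036908), which carries the nucleic acid sensing Toll-like receptors to endosomes. It was at 72.7, 70.8, 66.5, 62.9 and 70.7 CPM in WSD and 27.6, 25, 32.3, 31.2 and 30.2 CPM in CTRL, a log2 fold change of 1.23 ± 0.08 without beta-glucan and 0.48 ± 0.08 with it (difference 0.76 ± 0.12, adjusted p = 0.0366). The call was lost without WSD replicate 1, 2, 3 or 5 or CTRL replicate 1, 2, 4 or 5 in turn, with differences of 0.71 to 0.78 and adjusted p of 0.0538 to 0.115. DESeq2 called 139 genes in place of 1, with an adjusted p of 8.61e-07 for Unc93b1. Without the 3 libraries of the beta-glucan groups titled 37, 39 and 40, an alternative chosen after seeing the data, 2 genes passed and Unc93b1 did not (adjusted p = 0.104). With beta-glucan 19.1% of genes were higher and 15.2% lower. Of the 20 genes of largest gain and loss, 7 of 10 rose and 9 of 10 fell with beta-glucan as well, and 0 differed between both effects. Alb changed by -1.12 ± 0.14 without and by -0.83 ± 0.15 with beta-glucan (difference -0.29 ± 0.20, adjusted p = 0.513), and Scd1 by 1.83 ± 0.22 and 2.05 ± 0.23 (difference -0.22 ± 0.31, adjusted p = 0.768).

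Genes chosen for a change without beta-glucan had a smaller median change with it: 1.28 against 0.85 over all genes called higher. List medians moved both ways, and their values are a description. The median of MHC class II genes was 3.60 without and 2.42 with it, that of Fc and ITAM genes 2.79 and 1.78, and that of cytoskeleton genes 1.1 and 0.61. Medians farther from 0 with beta-glucan were those of smooth muscle markers (0.23 and 2.58, with 7 of 7 called higher), bile duct markers (0.97 and 2.30) and fetal and tumour genes (1.47 and 1.78), among others. The part of these markers in the other lists was not tested. The smooth muscle value of 0.23 includes CTRL replicate 4, with a sum of 149 CPM against at most 23.0 CPM in the other CTRL libraries. Fatty acid oxidation genes were called lower in 26 of 34 cases without and 10 with it, and sterol genes in 21 and 22 of 25. No member of these lists passed the adjusted test of the difference. An unadjusted p under 0.05 was found for 5 of 7 smooth muscle markers and for 6 of 10 MHC class II, 9 of 19 Fc and ITAM, 19 of 34 cytoskeleton, 18 of 34 oxidation and 2 of 25 sterol genes, beside 13.7% of all genes. Most of these lists hold mainly genes called without beta-glucan. Among all genes called higher without it the share was 22.2%, and among those called lower 20.7%. The plot of both effects gives each gene of largest change with its SE.

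**Figure D5:**
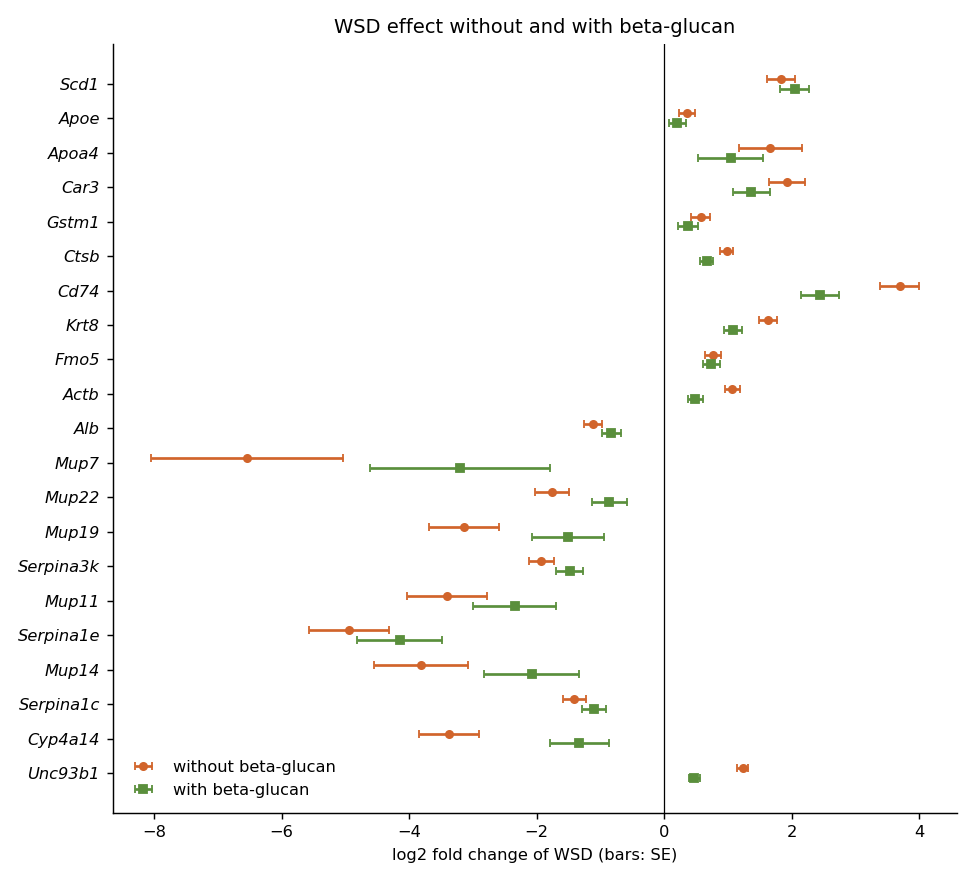
Log2 fold change with its SE for the WSD effect without beta-glucan (5 WSD against 5 CTRL libraries) and with it (4 against 5) for the 10 genes of largest gain, the 10 of largest loss and Unc93b1. Of the 20 genes, 9 gains and 10 losses lie nearer to 0 with beta-glucan, beside 3015 of 3528 genes called higher and 3235 of 3680 called lower, all chosen on the effect without it, and among these 21 genes the difference passed its test for Unc93b1.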

How the data were processed

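Liver RNA of male mice was made into 19 stranded mRNA libraries. The authors deposited, per library, estimated counts and TPM per transcript, made with Salmon 1.10.1 on GRCm39, per the submitters' processing notes, which also name DESeq2 1.38.3. TPM values as deposited were used only for effective lengths in one alternative and for no test. Of 116546 transcripts, 115977 (99.51%) matched GENCODE M21 by identifier, and the other 569 were left out. Estimated counts were summed per gene, rounded and fitted over all 19 libraries with edgeR 4.0.16 (R 4.3.3; filterByExpr, trimmed-mean factors, robust quasi-likelihood), contrast WSD minus CTRL, with Benjamini-Hochberg adjustment over 13594 genes. Transcript shares were tested with limma 3.58.1 on log2 odds (gene mean of at least 50 counts, share of at least 5%, pseudocount 0.5). Both tests were tested on simulated data. CPM carry a factor per library and no length correction.

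The libraries, 17360396 to 23450232 reads deep, carry no molecular identifiers, so counts cover counting error of reads only. Groups come from the treatment labels. Replicates were numbered in accession order and pair nothing. Genes named were the 10 of largest gain and loss of CPM, the 15 highest and lowest log2 fold changes (mean of at least 5 CPM in one group and 10 reads in the other), per list the 3 smallest p-values and members needed for its roles, and the 8 transcripts of largest change in share; others are marked. Some genes of this rule are not reported here. Members and lists were chosen with earlier results of these data known. Alternatives were RLE and total-count scaling, no filter, DESeq2 1.42.0, the 10 libraries alone, effective length as offset, each replicate left out and, added after seeing the data, 3 beta-glucan libraries left out.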

Additional observations from a re-analysis of the deposited data

Results flagged for a closer look

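Values of a single library stood apart from the other 4 of its group in several measures, by a gap test that chance passes in about 1 of 20 groups. CTRL replicate 4 was the highest CTRL library for Acta2 (40.0 CPM), for the summed smooth muscle markers (149 CPM), for the summed exocrine pancreas genes (5.44 CPM) and for Hsd3b5 (27.1 CPM). WSD replicate 3 was the highest WSD library for Egfr (118 CPM) and Hsd3b5 (1.30 CPM), WSD replicate 2 for Cyp2b9 (22.8 CPM) and WSD replicate 4 for Clec4e (1.51 CPM), while the only CTRL library with a Clec4e read stood at 0.0609 CPM. WSD replicate 4 was the lowest of its group for the summed smooth muscle markers (23.4 CPM) and for Pdlim2-210 (74.7% of its gene). CTRL replicate 2 was the lowest of its group for G6pc (487 CPM). Among the transcript shares, CTRL replicate 3 was the highest of its group for Pparg-201 (19.4%) and CTRL replicate 1 the lowest for Srgap3-202 (35.2%).

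The WSD effect on Unc93b1 was larger without than with beta-glucan, by 0.76 on the log2 scale, in the test of the difference itself (edgeR, adjusted p = 0.0366). Reads of the transcripts that matched no gene name, which no comparison used, made up 0.101% of a WSD library on average, and every WSD library (0.0880% to 0.110%) lay above every CTRL library (0.0636% to 0.0761%).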

How the results depend on the processing

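With scaling to total reads 7874 genes were higher and 617 lower in WSD, 172 lower by at least 2-fold, and 3 genes differed between the WSD effects without and with beta-glucan. Under that scaling 13 of the 282 named genes changed sign with a call on one side or the other. Col18a1, Lgals9, Mcoln1 and Yap1 went from lower to 0.11, 0.19, 0.19 and 0.14. Acat2, Casp8, Cd47, Cebpa, Ghr, Itgb1, Nr3c1, Ripk1 and Sc5d, which had not passed with values under 0, passed as higher at 0.37, 0.39, 0.31, 0.40, 0.27, 0.31, 0.38, 0.37 and 0.33. The median of all genes stood at 0.43 on the log2 scale under this scaling.

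With 1 replicate left out, the genes higher numbered 3180 to 3418, those lower 3268 to 3644, those higher by at least 2-fold 1988 to 2195, those lower by at least 2-fold 357 to 439, the genes whose WSD effect differed with beta-glucan 0 to 2, and the transcripts with a changed share 30 to 117. The lists with more members higher than lower were 33 in all, and 31 to 34 with a replicate left out. DESeq2 called 139 genes for the difference, and without the 3 beta-glucan libraries titled 37, 39 and 40, chosen after seeing the data, 2 genes passed. With a pseudocount of 5 the transcripts numbered 614. The cause of these moves was not tested, and leaving out a replicate both lowers the number of samples and removes the values of that library. RLE scaling, no filter, the 10 libraries alone and effective lengths left each count of genes higher or lower within 1.5 times. No paired analysis was possible because the labels number no replicates across groups. Depth limits genes with few CTRL reads, such as Clec4e, Phgdh, Lif and Spink1, for which no fold is given.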
